A study of Saccharomyces cerevisiae with 9 samples.

Results

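The transcripts of 41 yeast genes that encode the translation initiation, elongation and termination factors were followed in budding yeast cells overexpressing moxGFP or EGFP and in cells carrying the empty vector. The genes were chosen by their systematic names from what their products do, by a rule that names no measured value, though with earlier results of these data known, and all 41 were found among the 7128 gene rows of the count table. They comprised 3 subunits of eIF2, 5 of eIF2B, 6 of eIF3, 8 factors that bind the mRNA or its cap, 4 factors of start codon selection and subunit joining, 11 genes for elongation factors, 3 for termination and recycling, and STM1, which encodes a ribosome-associated protein. All 41 passed the filter on low counts that left 6338 genes to be tested.

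The samples were 9 libraries of total RNA from the diploid strain BY4743 (his3Δ1/his3Δ1 leu2Δ0/leu2Δ0 LYS2/lys2Δ0 met15Δ0/MET15 ura3Δ0/ura3Δ0), 3 each from moxGFP-overexpressing, EGFP-overexpressing and vector cells, labelled as biological replicates. EGFP is a green fluorescent protein with cysteines and moxGFP is a monomeric variant without them, and either was expressed from the strong TDH3 promoter on a multicopy 2µ plasmid, pTOW40836, that carries URA3 and the weakly expressed leu2-89 marker. The vector cells carried the same plasmid without a fluorescent protein gene, so the selection and the strain background were shared by all groups. Plasmid copy number need not be equal, since by the study's account growth inhibition by the expressed protein lowers it. All were grown to log phase at 30 °C in synthetic medium lacking leucine and uracil, which selects for many plasmid copies per cell.

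An mRNA is translated in stages, each of which has its own factors. The GTPase eIF2 brings the initiator tRNA to the small ribosomal subunit and is recharged with GTP by eIF2B, the target of the Gcn2 pathway, while eIF4E, eIF4G and the helicase eIF4A prepare the capped mRNA, eIF3 holds the complex together, and eIF1, eIF1A, eIF5 and eIF5B act in choosing the start codon and joining the large subunit. During elongation eEF1A delivers aminoacyl-tRNA, its exchange factor eEF1B recharges it, eEF2 moves the ribosome by one codon, and fungi also need the ATPase eEF3. The factor eIF5A, named for initiation, helps peptide bonds form at difficult sequences, and eRF1, eRF3 and the recycling ATPase Rli1 end the cycle. Several of these proteins are encoded by a pair of gene copies.

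The libraries held 8941674 to 9064524 gene counts in moxGFP cells, 7022201 to 9569895 in EGFP cells and 10643868 to 12959660 in vector cells. The lowest count of any member in any library was 12, that of GCD2 in moxGFP replicate 2, where HEF3 had 13. For members with so few counts, depth as well as the spread between libraries limited precision. The moxGFP entry took 4.11 to 31.1% of gene counts in moxGFP libraries, 0.310 to 0.723% in EGFP libraries and at most 6.94e-05% in vector libraries, and the EGFP entry took 0.234 to 0.413%, 11.2 to 23.8% and at most 0.000675% in the same groups. The library of moxGFP replicate 2 stood apart. Its ribosomal RNA share was 61.2% of gene counts, against 2.74 to 23.0% in the other 8 libraries, and its TMM factor (edgeR's scaling of the library size) was 0.384, against 0.793 to 1.31 elsewhere. Counts of calls, the medians over all members and several single changes are therefore given with and without this library. Class medians and mean levels per kilobase are given with all libraries only.

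In moxGFP replicate 2, long members were low and short members were high. For the 12 members with a coding sequence of 2000 bases or more the median level in this library was 0.74 log2 units below the mean of the other 2 moxGFP libraries, and for the 12 members under 1000 bases it was 0.23 above it. Spearman's rho of coding length with this deviation was −0.52 over the 41 members and −0.34 over 5829 coding genes, given as a description, since all points share 1 library. In other libraries rho over the members was 0.65 in moxGFP replicate 1, 0.54 in EGFP replicate 2 and 0.39 in vector replicate 1. It was −0.38 in EGFP replicate 1 and −0.30 in vector replicate 2, and between −0.14 and 0.13 in the remaining libraries. The values within a group are not independent, since each deviation is taken from the other 2 libraries. That of moxGFP replicate 1 is thus measured in part against replicate 2. Over the fitted changes, rho of coding length with the log2 fold change of the members was −0.45 for moxGFP against vector and −0.25 without replicate 2, −0.57 for moxGFP against EGFP and −0.42 without it, and 0.12 for EGFP against vector. The part that length or RNA quality had in the changes was not tested.

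**Figure D1:**
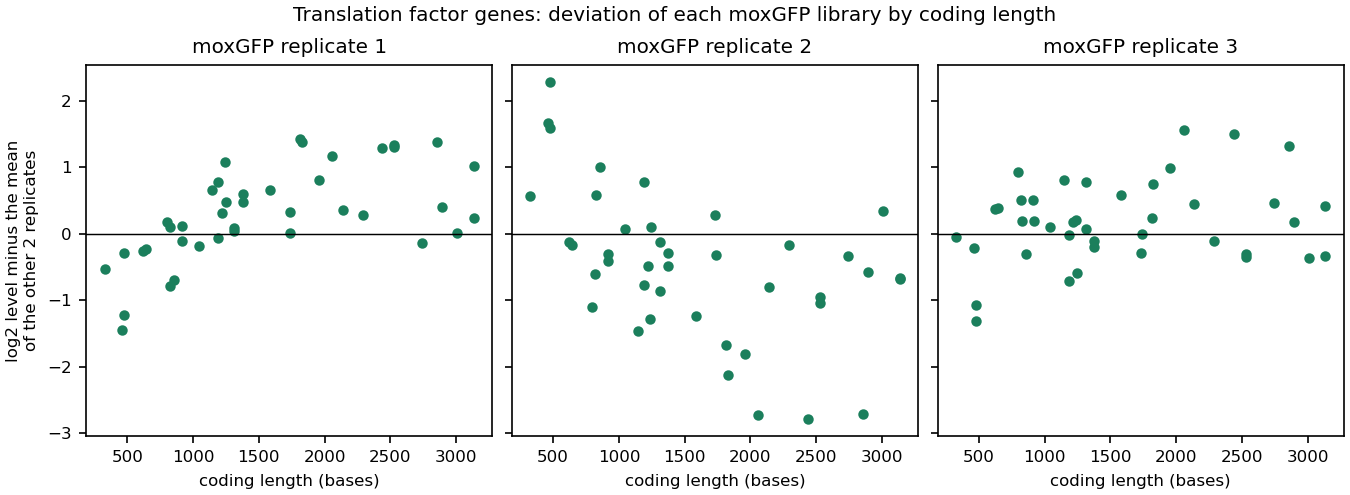
For each moxGFP library, the log2 level of each of the 41 members minus the mean of the other 2 replicates is plotted against coding length in bases. In replicate 2 the points fall with length (rho −0.52), and in replicate 1 they rise (rho 0.65). The mean that replicate 1 is measured against includes replicate 2.

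Promoter sequences are shown because one short sequence was shared by many of these genes. Windows from 250 bases before to 50 after the start codon were read for the members and for 6007 coding genes of the S288C reference (RefSeq, build R64), and 3 sequences known from promoters of the protein synthesis machinery were searched on both strands. The RRPE, a ribosomal RNA processing element found before genes of ribosome production, was searched as AAAAATTTT. It was present in 25 of the 41 windows (61.0%), against 420 of 6007 (6.99%) over all genes. Of 27 genes that act on these factors, treated further below, 7 had it (25.9%). The PAC sequence, GCGATGAG, was in 1 of 41 windows (2.44%), that of TIF35, against 3.93% of all windows. The sequence ACCCNNNCA, part of the binding sequence of Rap1, was in 0 of 41, against 7.27% of all. With only the 250 bases before the start codon, 24 members (58.5%) and 6.74% of all genes had the RRPE letters, the member lost being PRT1. The letters were present for all 3 subunits of eIF2, 4 of 6 of eIF3, 7 of 11 elongation genes and all 3 termination genes, and for 1 of 5 subunits of eIF2B.

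Of the 14 members called in any comparison, 8 carried the RRPE letters in the window, and the stretches of 7 of them are shown because they precede genes that changed (EFT1 has matches 172 and 146 bases before its start codon). They are given with the match in capitals, 5′ to 3′ on the strand of the gene. The match of SUI2 (chromosome X, forward strand) starts 213 bases before the start codon, that of SUI3 (XVI, forward) 148, that of CDC33 (XV, reverse) 186, that of TIF3 (XVI, reverse) 182, that of FUN12 (I, forward) 116, that of EFB1 (I, forward) 158 and that of EFT2 (IV, forward) 171 bases before it.
SUI2: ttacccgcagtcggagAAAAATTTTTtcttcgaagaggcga
SUI3: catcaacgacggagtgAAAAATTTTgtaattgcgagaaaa
CDC33: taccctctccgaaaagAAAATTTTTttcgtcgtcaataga
TIF3: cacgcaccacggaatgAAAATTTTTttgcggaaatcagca
FUN12: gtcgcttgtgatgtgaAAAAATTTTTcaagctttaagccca
EFB1: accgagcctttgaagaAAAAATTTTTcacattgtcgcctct
EFT2: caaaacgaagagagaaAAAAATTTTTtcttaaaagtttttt
Where AAAAATTTT is followed by another T, the same 10 bases match on both strands and were counted as 1 site. The members held 27 such sites, at a median of 169 bases before the start codon (interquartile range 143 to 186), against a median of 141.5 (114 to 181) for the 442 sites of all promoters. Members with and without the letters both included genes that rose. In moxGFP against vector the 25 with the letters had a median of 0.46 on the log2 scale, with 5 called higher and 2 lower, and the 16 without had 0.22, with 3 called higher and 0 lower. In EGFP against vector the medians were −0.16 and 0.28. These are counts of letters in windows and say nothing of binding.

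**Figure D2:**
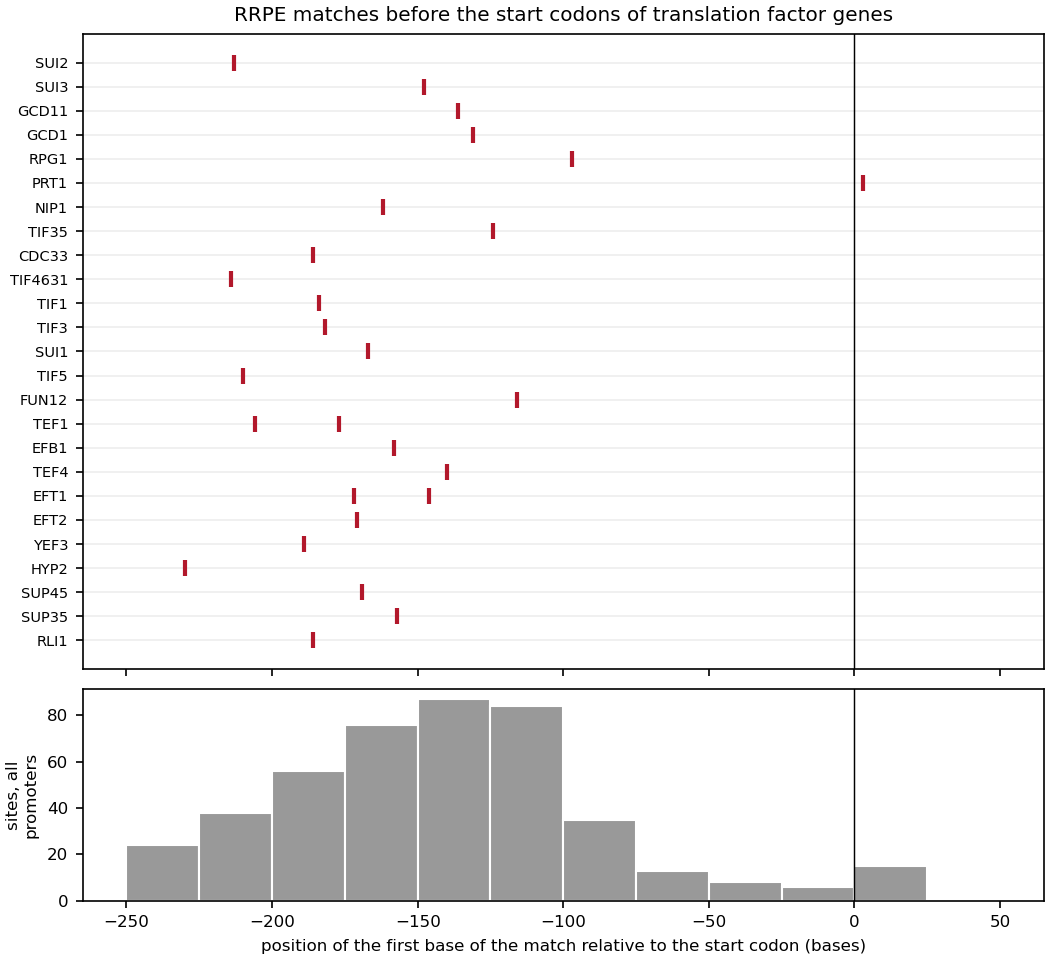
Position of each RRPE match relative to the start codon, in bases, for the 25 members that hold one (upper panel), and the number of matches in bins of 25 bases over all promoters (lower panel). Most member matches lie between 100 and 200 bases before the start codon (20 of 27), as do 305 of the 442 over all promoters.

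The 9 libraries were fitted together by edgeR's quasi-likelihood method, and a gene is called where its p-value, adjusted by the Benjamini-Hochberg method over the 6338 genes, was below 0.05. Levels are counts per 1000000 (CPM) of the TMM-scaled library size, fold changes are on the log2 scale with their standard errors, and the comparisons share libraries, so that they are not independent of each other. In moxGFP against vector, 8 members were called higher and 2 lower. Over all genes tested, 14.8% were called higher and 14% lower, so the share of members called higher was near the background and the share called lower was under it. In EGFP against vector, 2 members were called higher and 0 lower by edgeR, against 7.6% and 7.76% of all genes. By edgeR 11 of the 41 members had an unadjusted p below 0.05, as did 1964 of the 6338 genes tested. DESeq2 called 4 members higher and 4 lower, and 570 and 774 of all genes. In moxGFP against EGFP, 5 members were called higher and 2 lower, against 7.48% and 7.07% of all genes. The median log2 fold change of the members was 0.42 in moxGFP against vector, 0.07 in EGFP against vector and 0.15 in moxGFP against EGFP, against 0.14, 0.09 and 0.01 over all genes tested. Without moxGFP replicate 2 these medians of the members were 0.52, 0.02 and 0.41, against 0.05, 0.05 and 0.02 over all genes. The first was 0.27 without moxGFP replicate 3, the second was −0.01 without vector replicate 1, and the third was −0.03 without moxGFP replicate 1. No call was made for 27 of the 41 members in any comparison.

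Without moxGFP replicate 2, 13 members were called higher and 2 lower in moxGFP against vector, 8 higher and 4 lower in EGFP against vector, and 6 higher and 2 lower in moxGFP against EGFP. Calls over all genes rose as well, since of the 6404 genes tested in that fit 1182 were called higher and 1206 lower in moxGFP against vector, 945 and 1104 in EGFP against vector, and 744 and 650 in moxGFP against EGFP. All members called with all libraries stayed called except SUI3 in moxGFP against vector. The EGFP comparison gained GCD2, GCD6, TIF4631, TIF3, SUP35 and STM1 as higher and TEF4, EFT1, EFT2 and YEF3 as lower. The moxGFP comparison gained GCD2, GCD6, TIF34, CDC33, TIF4631 and SUP35 as higher. Other libraries mattered as well. In moxGFP against vector 1 member, TIF11, was called higher without vector replicate 1, 2 without vector replicate 3, 4 without moxGFP replicate 3, and 5 without EGFP replicate 1 or vector replicate 2. Calls over all genes also fell in these fits. Against 937 with all libraries, 346 genes were called higher without vector replicate 1 and 446 without vector replicate 3. There were 716 without moxGFP replicate 3, 785 without EGFP replicate 1 and 688 without vector replicate 2. The 2 lower calls were lost without moxGFP replicate 3 or any 1 EGFP or vector library. Over all genes 404 to 801 were called lower in those fits, against 887 with all libraries. In EGFP against vector 1 was called higher without EGFP replicate 1, vector replicate 1 or vector replicate 3, and 3 were called lower without moxGFP replicate 1. Of all genes, 203, 106 and 184 were called higher without EGFP replicate 1, vector replicate 1 and vector replicate 3, against 482. Without moxGFP replicate 1, 527 were called lower, against 492. In moxGFP against EGFP 1 was called higher without EGFP replicate 1 and 0 without EGFP replicate 2, and 1 or 0 were called lower without these libraries, moxGFP replicate 3 or a vector library. Of all genes, 111 and 32 were called higher without EGFP replicates 1 and 2, against 474. Those called lower numbered 69 to 364 in the fits named, against 448. Over 19 alternative fits, the rise of TIF11 in moxGFP against vector was called in 18, those of TIF3 and ANB1 in 15, those of SUI2 and STM1 in 13, those of SUI3 and FUN12 in 9 and that of EFB1 in 6, while the falls of EFT1 and EFT2 were called in 9 and 8. In moxGFP against EGFP, SUI2, SUI3, CDC33, TIF11 and ANB1 were called in 14 each, HEF3 in 13 and CAM1 in 9. In EGFP against vector, FUN12 was called in 17 and TIF4632 in 14.

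Counted by libraries alone, all 3 moxGFP libraries lay above all 3 vector libraries for 13 members and below them for 7, against 22.9% and 22.4% of all genes. The EGFP libraries lay above the vector libraries for 11 members and below for 6, against 24.6% and 21.2%. The moxGFP libraries lay above the EGFP libraries for 7 members and below for 9, against 16.8% and 19% of all genes.

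**Figure D3:**
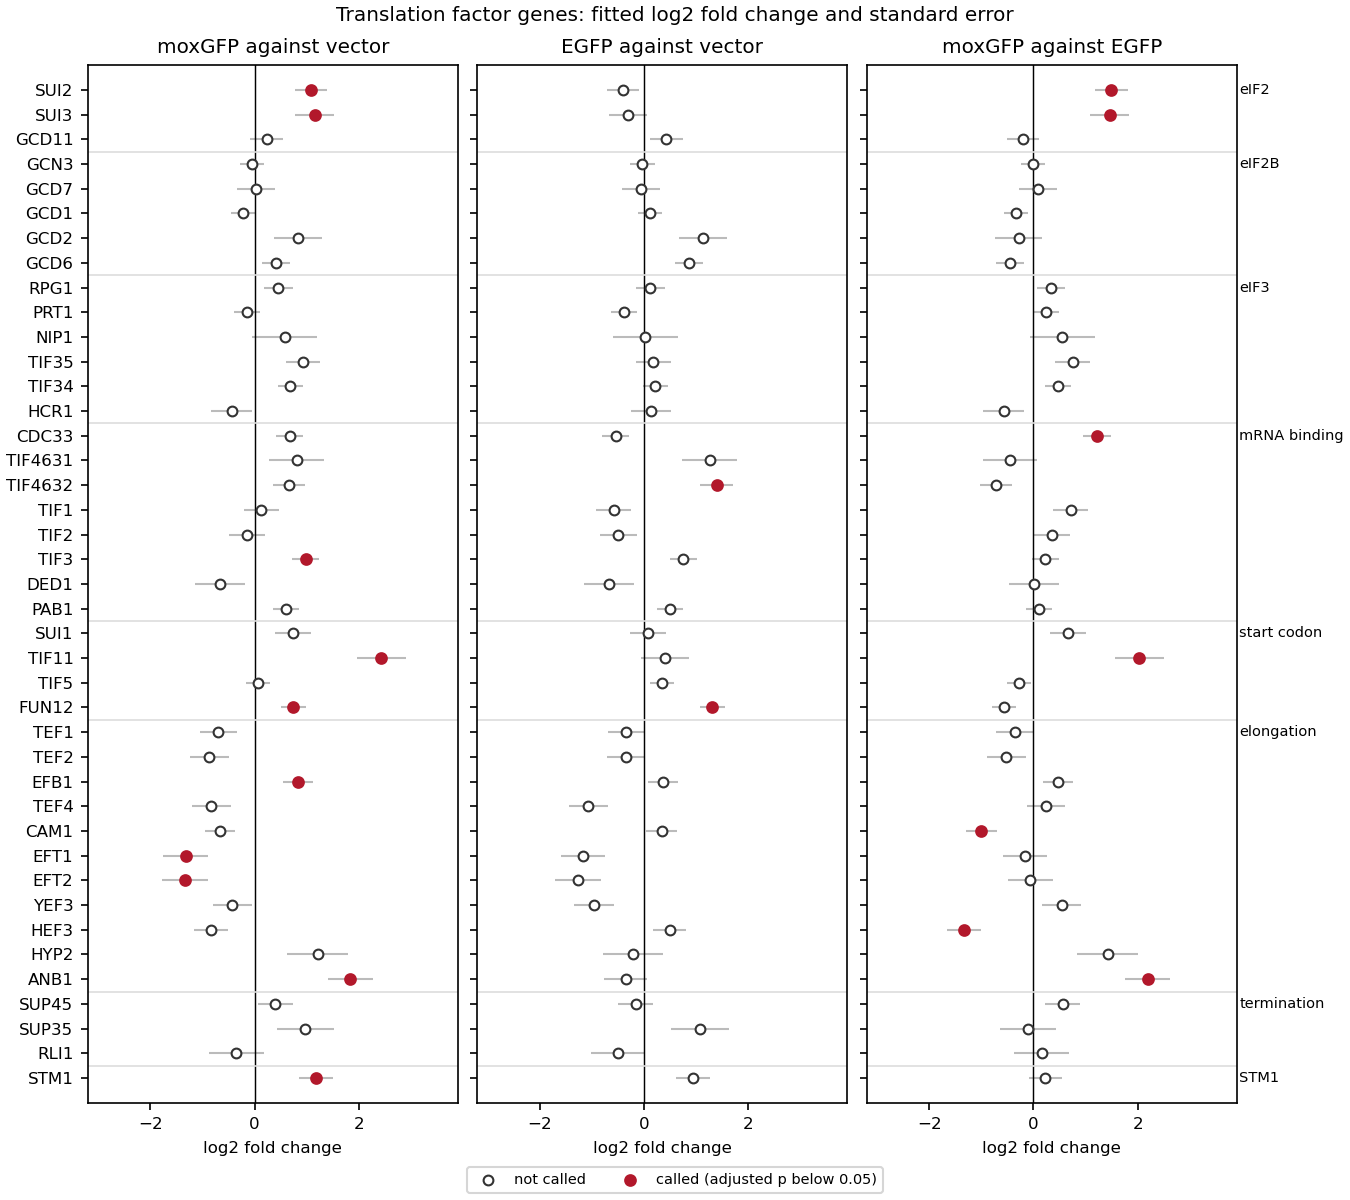
Fitted log2 fold change of each of the 41 members in moxGFP against vector, EGFP against vector and moxGFP against EGFP, with bars of 1 standard error, and filled points where the adjusted p-value was below 0.05. The filled points number 10, 2 and 7, and the initiation factors lie mostly right of 0 in moxGFP against vector while EFT1 and EFT2 lie at −1.33 in that panel.

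Among the eIF2 subunits, SUI2 and SUI3 were higher in moxGFP cells than in both other groups, and GCD11 was not called. SUI2 (YJR007W), the alpha subunit that Gcn2 phosphorylates, had 107, 93.0 and 142 CPM in moxGFP libraries, 31.3, 32.0 and 58.3 in EGFP libraries and 56.3, 44.8 and 59.7 in vector libraries. Every moxGFP library lay above every other library. The log2 fold change was 1.09 ± 0.31 against vector (adjusted p = 0.0244) and 1.49 ± 0.31 against EGFP (adjusted p = 0.0145), by edgeR. SUI3 (YPL237W), the beta subunit, had 112, 246 and 135 CPM in moxGFP libraries, 51.2, 43.4 and 83.4 in EGFP libraries and 60.5, 92.2 and 68.3 in vector libraries. Its log2 fold change was 1.15 ± 0.37 against vector (adjusted p = 0.0378) and 1.47 ± 0.37 against EGFP (adjusted p = 0.0261), and without moxGFP replicate 2 the call against vector was lost (0.73, adjusted p = 0.0643) while that against EGFP stayed (1.10, adjusted p = 0.0176). GCD11 (YER025W), the GTP-binding gamma subunit, had 78.2, 32.4 and 75.7 CPM in moxGFP libraries, 70.6, 72.0 and 72.3 in EGFP libraries and 53.9, 49.2 and 56.4 in vector libraries. Its moxGFP libraries spanned the values of the other groups, with replicate 2 the lowest. The summed level of the 3 subunits was 297 to 372 CPM in moxGFP libraries, 147 to 214 in EGFP libraries and 171 to 186 in vector libraries.

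None of the 5 eIF2B subunits was called with all libraries, and their log2 fold changes lay between −0.23 and 0.84 in moxGFP cells and between −0.05 and 1.13 in EGFP cells. GCD2 (YGR083C), the delta subunit, had 12.98, 3.50 and 14.1 CPM in moxGFP libraries, 13.5, 10.7 and 14.3 in EGFP libraries and 3.67, 8.17 and 5.64 in vector libraries. All EGFP libraries exceeded all vector libraries (log2 fold change 1.13 ± 0.46, adjusted p = 0.123), and so did moxGFP replicates 1 and 3 but not replicate 2. Without that library GCD2 was called higher in both comparisons, at 1.07 in EGFP cells (adjusted p = 0.0138) and 1.19 in moxGFP cells (adjusted p = 0.0109), from edgeR. GCD6, the catalytic epsilon subunit, moved likewise, at 0.87 ± 0.27 in EGFP cells with all libraries (adjusted p = 0.0534). GCN3, GCD7 and GCD1 had log2 fold changes between −0.23 and 0.11 against vector in both groups.

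None of the 6 eIF3 subunits was called with all libraries either. Their log2 fold changes against vector lay between −0.44 and 0.93 in moxGFP cells and between −0.38 and 0.22 in EGFP cells. RPG1, the a subunit, was at 0.46 in moxGFP cells and 0.12 in EGFP cells, and HCR1, the j subunit, at −0.44 and 0.13. The largest change in moxGFP cells was that of TIF35 (YDR429C), the g subunit, with 46.9, 88.7 and 73.7 CPM in moxGFP libraries, 49.7, 33.7 and 40.6 in EGFP libraries and 27.5, 52.1 and 29.9 in vector libraries. The groups overlapped at vector replicate 2, and the log2 fold change was 0.93 ± 0.34 (adjusted p = 0.0578, edgeR). PRT1 (YOR361C), the b subunit, changed most in EGFP cells, by −0.38 ± 0.25 (adjusted p = 0.336), with 128, 104 and 107 CPM in moxGFP libraries, 85.4, 97.1 and 105 in EGFP libraries and 144, 97.2 and 134 in vector libraries. TIF34, the i subunit, lay above vector in all 3 moxGFP libraries (117 to 134 against 69.5 to 92.8 CPM) with a log2 fold change of 0.69 ± 0.24 and an adjusted p of 0.0540. NIP1, the c subunit, was at 12.2 CPM in moxGFP replicate 2, against 83.7 and 91.9 in the other 2 moxGFP libraries.

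Among the 8 genes for factors that bind the mRNA, TIF3 was called higher in moxGFP cells and TIF4632 in EGFP cells against vector, and CDC33 was called higher in moxGFP than in EGFP cells. CDC33 (YOL139C), which encodes eIF4E, had 204, 211 and 272 CPM in moxGFP libraries, 93.2, 89.3 and 112 in EGFP libraries and 117, 168 and 144 in vector libraries. The 3 groups did not overlap, with EGFP the lowest. The change in moxGFP against EGFP was 1.22 ± 0.26 (adjusted p = 0.0156), while neither comparison with vector was called (0.68, adjusted p = 0.0707, in moxGFP cells and −0.54, adjusted p = 0.184, in EGFP cells). TIF4632 (YGL049C), one of the eIF4G genes, had 9.93, 9.04 and 13.3 CPM in moxGFP libraries, 19.4, 16.6 and 17.9 in EGFP libraries and 4.50, 8.92 and 6.93 in vector libraries. It was the largest called change in EGFP cells, at 1.39 ± 0.31 (adjusted p = 0.0133), against 0.67 ± 0.31 in moxGFP cells (adjusted p = 0.124), and the difference between the proteins, −0.73 ± 0.31, was not called (adjusted p = 0.124). TIF4631 (YGR162W), the other eIF4G gene, had 47.4, 6.71 and 46.1 CPM in moxGFP libraries, 43.5, 44.9 and 50.99 in EGFP libraries and 16.4, 25.03 and 16.5 in vector libraries. Only moxGFP replicate 2 lay below the vector libraries. Without it the log2 fold change was 1.26 in moxGFP cells (adjusted p = 0.00209) and 1.21 in EGFP cells (adjusted p = 0.00150), and with it 0.81 and 1.27 with no call.

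TIF3 (YPR163C), which encodes eIF4B, a cofactor of the eIF4A helicase, had 77.0, 71.5 and 78.4 CPM in moxGFP libraries, 72.8, 51.1 and 69.5 in EGFP libraries and 30.5, 46.6 and 37.5 in vector libraries. The moxGFP libraries lay close together and above every vector library. The log2 fold change was 0.98 ± 0.26 in moxGFP cells (adjusted p = 0.0173) and 0.75 ± 0.26 in EGFP cells (adjusted p = 0.0712). TIF1 (YKR059W), which with TIF2 encodes eIF4A, had 797, 1172 and 589 CPM in moxGFP libraries, 479, 477 and 606 in EGFP libraries and 799.6, 592 and 943 in vector libraries. TIF2 (YJL138C) had 744, 362 and 513 CPM in moxGFP libraries, 335, 410.0 and 528 in EGFP libraries and 667, 434 and 692 in vector libraries. Neither was called in any comparison, the groups overlapping. The helicase gene DED1 and the poly(A)-binding protein gene PAB1 were not called either, with log2 fold changes of −0.66 and 0.61 in moxGFP cells and −0.67 and 0.50 in EGFP cells.

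In the start codon class, TIF11 had the largest rise of all members and FUN12 rose with both proteins. TIF11 (YMR260C), which encodes eIF1A, had 142, 605 and 252 CPM in moxGFP libraries, 86.8, 63.3 and 93.3 in EGFP libraries and 53.0, 78.1 and 52.9 in vector libraries. All moxGFP libraries were above all others, with replicate 2 far the highest. The log2 fold change was 2.44 ± 0.48 against vector (adjusted p = 0.00544) and 2.03 ± 0.47 against EGFP (adjusted p = 0.0199), and without replicate 2 it was 1.67 (adjusted p = 0.000913) and 1.32 (adjusted p = 0.00713). FUN12 (YAL035W), which encodes the subunit-joining GTPase eIF5B, had 47.6, 55.7 and 40.0 CPM in moxGFP libraries, 65.5, 71.0 and 75.3 in EGFP libraries and 29.5, 25.6 and 30.2 in vector libraries. The 3 groups did not overlap, with EGFP the highest. With all libraries FUN12 was the only member called higher against vector in both comparisons, at 0.74 ± 0.24 in moxGFP cells (adjusted p = 0.0363) and 1.31 ± 0.24 in EGFP cells (adjusted p = 0.00598), while moxGFP against EGFP was −0.57 ± 0.23 (adjusted p = 0.116). SUI1, which encodes eIF1, and TIF5, which encodes eIF5, were not called, at 0.74 and 0.07 in moxGFP cells and 0.07 and 0.34 in EGFP cells.

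Over the 26 initiation genes the median log2 fold change was 0.59 in moxGFP cells and 0.13 in EGFP cells against vector, with 5 called higher and 0 lower in moxGFP cells and 2 higher and 0 lower in EGFP cells. The shares called higher lay near those of all genes, 14.8% in moxGFP cells and 7.6% in EGFP cells. Over the 11 elongation genes the medians were −0.70 and −0.34, with 2 called in each direction in moxGFP cells and 0 in EGFP cells. Of all genes, 14% were called lower in moxGFP cells and 7.76% in EGFP cells, so the elongation shares in moxGFP cells were near the background. The 2 lower calls were EFT1 and EFT2, nearly identical copies that gave 1 call when summed (−1.33, adjusted p = 0.0497, edgeR). In EGFP cells 4 elongation genes had an unadjusted edgeR p below 0.05, as did 1964 of all 6338 genes. With library sizes alone, without TMM scaling, the elongation median in EGFP cells was 0.10, and the median of all genes in that comparison moved to 0.52, so that the elongation median lay below that of all genes under both scalings.

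**Figure D4:**
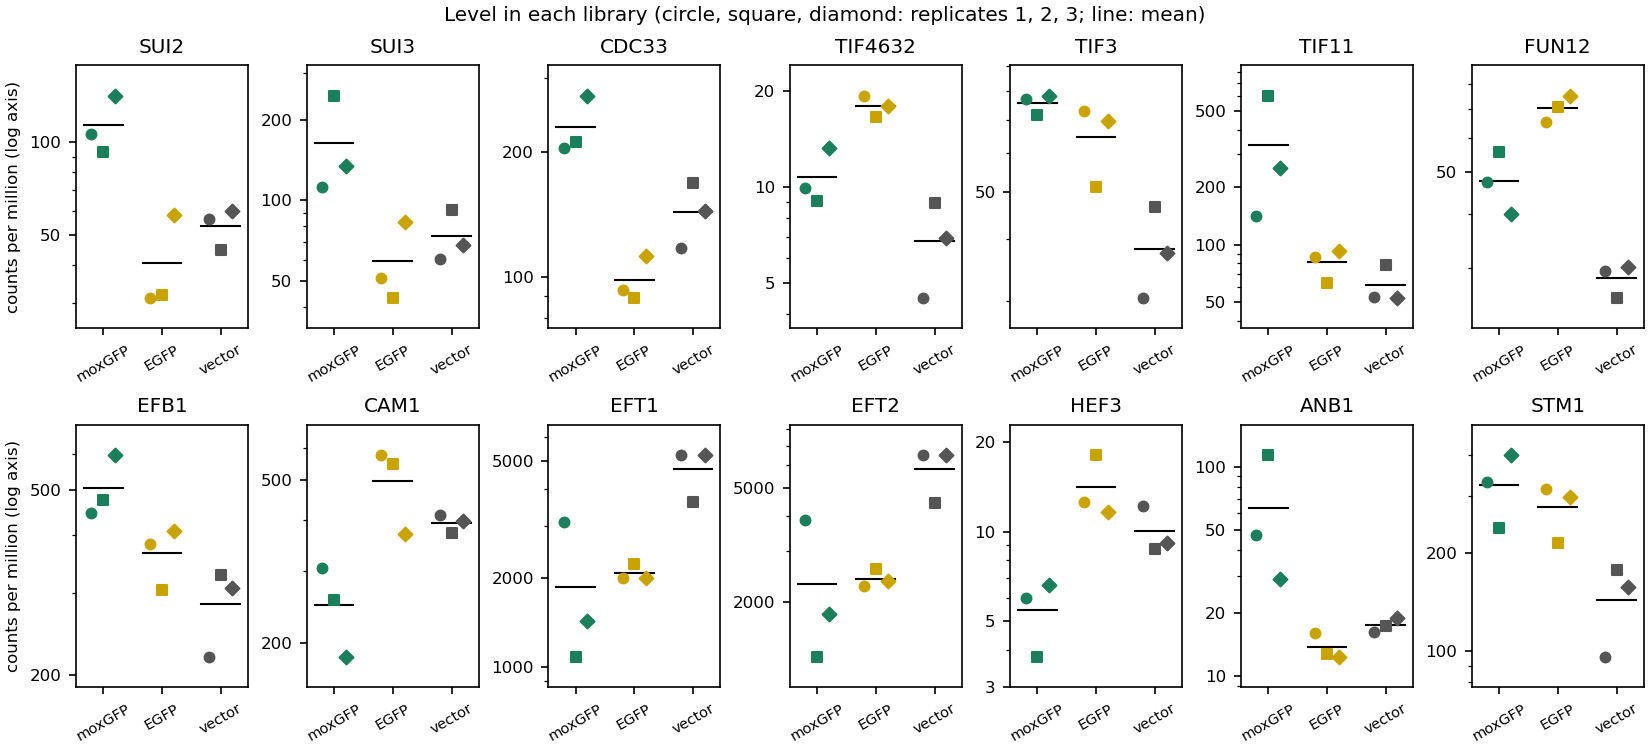
Level in CPM, on a log axis, of the 14 members called in any comparison, with 1 point per library (circle, square and diamond for replicates 1, 2 and 3) and a line at the mean of each group. The moxGFP square stands far above the other moxGFP points for TIF11 (605 CPM) and ANB1 (114 CPM) and is the lowest moxGFP point for EFT1 and EFT2.

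Of the elongation genes, only those for eEF2 were called lower against vector with all libraries, and only in moxGFP cells. The fitted change was below 0 for 8 of the 11 elongation genes in either comparison with vector. EFT1 (YOR133W) had 3090.15, 1086 and 1436 CPM in moxGFP libraries, 2003, 2239.8 and 2005 in EGFP libraries and 5223, 3610.1 and 5231 in vector libraries. EFT2 (YDR385W) had 3845, 1282 and 1806 CPM in moxGFP libraries, 2272, 2598 and 2354 in EGFP libraries and 6507, 4413 and 6521 in vector libraries. Every moxGFP and EGFP library lay below every vector library for both copies. In moxGFP cells the log2 fold changes were −1.33 ± 0.43 for EFT1 (adjusted p = 0.0396) and −1.33 ± 0.44 for EFT2 (adjusted p = 0.0432). In EGFP cells they were −1.17 ± 0.43 (adjusted p = 0.0880) and −1.27 ± 0.44 (adjusted p = 0.0753), and with no moxGFP replicate 2 in the fit both were called (adjusted p = 0.0130 and 0.00921). The EGFP libraries were close to each other, within 2003 and 2239.8 CPM for EFT1, while the moxGFP libraries ranged over 1086 to 3090.15.

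The other abundant elongation genes were not called with all libraries. TEF1 (YPR080W), which with TEF2 encodes eEF1A, had 5028, 3522 and 3674 CPM in moxGFP libraries, 5035, 5085 and 5568 in EGFP libraries and 6671, 5276 and 7894 in vector libraries. TEF2 (YBR118W) had 5675, 3438 and 4093 CPM in moxGFP libraries, 5948, 6313 and 6717 in EGFP libraries and 8029, 6537 and 9515 in vector libraries. All moxGFP libraries lay below all vector libraries for either copy, with log2 fold changes of −0.70 ± 0.36 and −0.87 ± 0.37 (adjusted p = 0.155 and 0.0986). YEF3 (YLR249W), which encodes eEF3, had 3494, 1596 and 1869 CPM in moxGFP libraries, 1407, 1758 and 1614 in EGFP libraries and 3477, 2406 and 3457 in vector libraries. Its EGFP libraries lay below all vector libraries (−0.97 ± 0.38, adjusted p = 0.111), and it was called lower in EGFP cells without moxGFP replicate 2 in the fit (−1.01, adjusted p = 0.0243). In moxGFP cells replicate 1 was as high as the highest vector library. HEF3 (YNL014W), the weakly transcribed copy of YEF3, had 5.996, 3.79 and 6.59 CPM in moxGFP libraries, 12.5, 18.1 and 11.6 in EGFP libraries and 12.2, 8.77 and 9.14 in vector libraries. It was lower in moxGFP than in EGFP cells (−1.34 ± 0.32, adjusted p = 0.0225), and neither comparison with vector was called.

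The subunits of eEF1B did not move together. EFB1 (YAL003W), which encodes its catalytic alpha subunit, had 447, 476 and 597 CPM in moxGFP libraries, 384, 304 and 409 in EGFP libraries and 219, 328 and 308 in vector libraries. It was called higher in moxGFP cells (0.83 ± 0.28, adjusted p = 0.0487) and not in EGFP cells (0.36 ± 0.28, adjusted p = 0.425). TEF4 (YKL081W), for a gamma subunit, had 530.1, 177 and 353 CPM in moxGFP libraries, 267, 293 and 338 in EGFP libraries and 601, 593 and 688 in vector libraries, lower than vector in every library of both groups (−0.83 ± 0.37 and −1.07 ± 0.37, adjusted p = 0.109 and 0.0753). CAM1 (YPL048W), the other gamma gene, had 305, 255 and 185 CPM in moxGFP libraries, 576, 546 and 369 in EGFP libraries and 411, 371 and 397 in vector libraries. It was called lower in moxGFP than in EGFP cells (−1.001 ± 0.298, adjusted p = 0.0454), with no overlap between those groups. A noncoding RNA gene on the same strand overlaps EFB1 and another overlaps TEF4 in the R64 annotation, and the table does not say to which gene shared reads were given.

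Of the eIF5A genes, ANB1 rose in moxGFP cells. ANB1 (YJR047C), known as the copy used under low oxygen, had 47.3, 114 and 29.2 CPM in moxGFP libraries, 16.1, 12.8 and 12.4 in EGFP libraries and 16.4, 17.5 and 18.9 in vector libraries. Every moxGFP library exceeded every other library. The log2 fold change was 1.84 ± 0.43 against vector (adjusted p = 0.0107) and 2.19 ± 0.43 against EGFP (adjusted p = 0.0116), and 1.11 (adjusted p = 0.00543) and 1.51 (adjusted p = 0.00194) without replicate 2. HYP2 (YEL034W), the copy used in air, had 51.7, 263 and 55.5 CPM in moxGFP libraries, 37.3, 38.6 and 61.2 in EGFP libraries and 78.1, 36.3 and 44.1 in vector libraries. Only replicate 2 stood above the other groups, and HYP2 was not called (1.22 ± 0.58 against vector, adjusted p = 0.133). Without replicate 2 its change against vector was 0.02 (adjusted p = 0.969). Summed before the fit, HYP2 and ANB1 gave 1.40 ± 0.52 against vector with all libraries (adjusted p = 0.0620).

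The termination genes were not called with all libraries. SUP35 (YDR172W), which encodes eRF3, had 55.3, 8.75 and 66.4 CPM in moxGFP libraries, 42.8, 46.4 and 52.8 in EGFP libraries and 13.9, 29.2 and 23.9 in vector libraries. Apart from moxGFP replicate 2, every library of both proteins lay above every vector library. The log2 fold change was 0.97 ± 0.55 in moxGFP cells and 1.08 ± 0.55 in EGFP cells (adjusted p = 0.194 and 0.210), and without replicate 2 it was 1.43 and 1.03 and called in both (adjusted p = 0.00212 and 0.00944). SUP45, which encodes eRF1, and RLI1 were at 0.40 and −0.35 in moxGFP cells and −0.16 and −0.50 in EGFP cells. STM1 (YLR150W) had 330.5, 239 and 400.4 CPM in moxGFP libraries, 315, 215 and 298 in EGFP libraries and 95.7, 177 and 157 in vector libraries. No moxGFP or EGFP library was as low as a vector library, and STM1 was called higher in moxGFP cells (1.17 ± 0.33, adjusted p = 0.0219) and not in EGFP cells (0.95 ± 0.33, adjusted p = 0.0735).

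Because several factors have 2 gene copies, the coding sequences of the pairs were compared and the share of each copy was followed. TIF1 and TIF2 differ at 6 of 1188 bases (99.5% identity), TEF1 and TEF2 at 2 of 1377 (99.9%), and EFT1 and EFT2 at 4 of 2529 (99.8%), so that reads within the coding sequence can seldom be assigned to 1 copy and the split between these copies is uncertain. HYP2 and ANB1 differ at 43 of 474 bases (90.9% identity). YEF3 and HEF3 are 74.7% identical over the alignment, TEF4 and CAM1 69.1%, and TIF4631 and TIF4632 59.8%. To show how close or far the copies are, the 60 bases with the most differences (bases 274 to 333 of the coding sequence for the eIF5A genes, with 10 differences, and 703 to 762 for the eEF1A genes, with 1) are printed with differing bases in capitals, HYP2 from chromosome V, ANB1 from X, TEF1 from XVI and TEF2 from II.
HYP2: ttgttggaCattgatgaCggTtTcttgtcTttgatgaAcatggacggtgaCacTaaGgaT
ANB1: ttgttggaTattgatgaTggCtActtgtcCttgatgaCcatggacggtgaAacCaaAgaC
TEF1: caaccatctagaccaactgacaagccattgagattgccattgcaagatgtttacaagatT
TEF2: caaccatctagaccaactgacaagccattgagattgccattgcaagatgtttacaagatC

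CAM1 took 36.5, 59.1 and 34.4% of the counts of TEF4 and CAM1 in moxGFP libraries, 68.4, 65.1 and 52.2% in EGFP libraries and 40.6, 38.5 and 36.6% in vector libraries. Every EGFP library lay above every vector library, a difference in means of 23.3 percentage points. By an exact two-sided permutation test this gave p = 0.1, the smallest that 3 against 3 libraries allow, and 0.263 after Benjamini-Hochberg adjustment over the 21 tests of 7 pairs. ANB1 took 47.8, 30.2 and 34.5% of the eIF5A counts in moxGFP libraries, 30.1, 24.9 and 16.8% in EGFP libraries and 17.3, 32.5 and 30.0% in vector libraries (exact p = 0.2 for moxGFP against vector). HEF3 took 0.171 to 0.352% of the eEF3 counts in moxGFP libraries, 0.714 to 1.02% in EGFP libraries and 0.264 to 0.363% in vector libraries. TIF4632 took 57.4% of the eIF4G counts in moxGFP replicate 2, against 17.3 to 30.8% in the other 8 libraries, and TIF2 took 23.6% of the eIF4A counts there, against 41.2 to 48.3% elsewhere. TEF2 and EFT2 took 49.4 to 55.4% and 53.1 to 55.7% of their pairs over all 9 libraries. No pair could pass the threshold with 3 libraries a group, and no adjusted p-value was below 0.263.

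**Figure D5:**
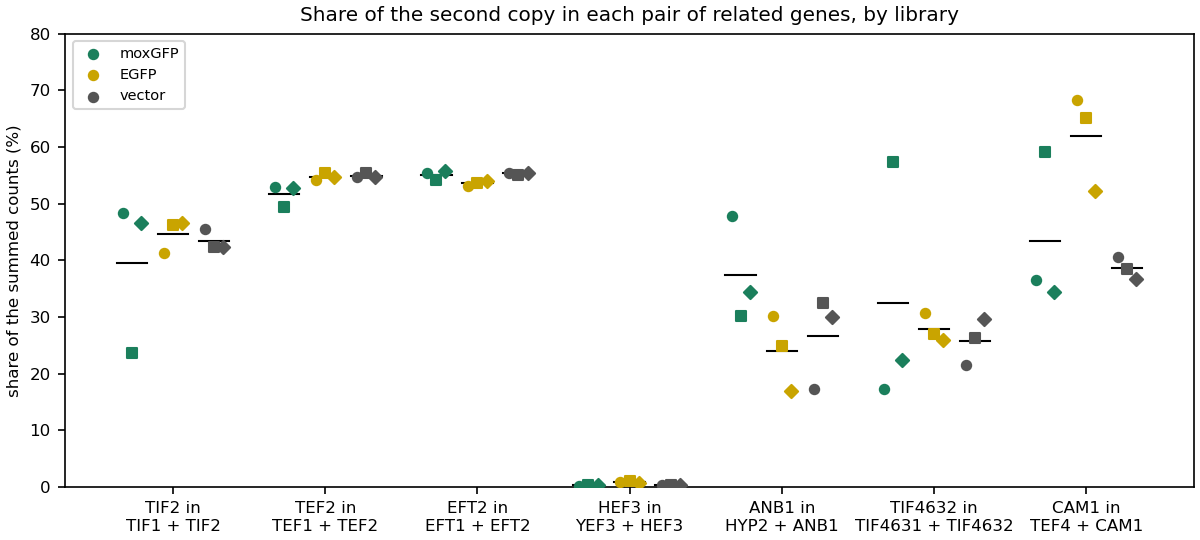
Share of the second copy in the summed counts of each of 7 pairs, in percent, with 1 point per library (circle, square and diamond for replicates 1, 2 and 3) and a line at the group mean. The EGFP points of CAM1 (52.2 to 68.4%) lie above the vector points (36.6 to 40.6%), and the moxGFP square of TIF2 and of TIF4632 lies away from all other points of those pairs.

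Levels between genes were compared as CPM per kilobase of coding length, by mean and SD over 3 libraries. TEF2 and TEF1 ranked first and second of the 41 in all groups, with TEF2 at 3197 ± 835 in moxGFP cells, 4594 ± 279 in EGFP cells and 5829 ± 1081 in vector cells. EFT2 was at 914 ± 536 in moxGFP cells, 952 ± 67.0 in EGFP cells and 2299 ± 480 in vector cells. Transcripts of the eIF4G gene TIF4631 were fewer per kilobase than those of CDC33, with TIF4631 at 11.7 ± 8.08, 16.3 ± 1.39 and 6.75 ± 1.73 in moxGFP, EGFP and vector cells, against 357 ± 58.5, 153 ± 19.3 and 223 ± 39.8 for CDC33 in the same groups. Among the eIF2 subunits in moxGFP cells, SUI3 was at 191 ± 83.8, SUI2 at 125 ± 27.6 and GCD11 at 39.2 ± 16.3. By library SUI3 was at 130, 287 and 157, SUI2 at 117, 102 and 155 and GCD11 at 49.4, 20.4 and 47.8. Replicate 2 was thus the highest moxGFP library for SUI3 and the lowest for SUI2 and GCD11, which widened the distance between the means. In EGFP cells SUI3, SUI2 and GCD11 were at 69.1 ± 24.7, 44.3 ± 16.8 and 45.2 ± 0.584, and in vector cells at 85.8 ± 19.3, 58.6 ± 8.54 and 33.6 ± 2.34. The members together took 2.02 ± 1.24% of gene counts in moxGFP libraries, 2.87 ± 0.109% in EGFP libraries and 3.15 ± 0.602% in vector libraries, with moxGFP replicate 2 at 0.645%. With ribosomal RNA rows and GFP entries left out of the total, the shares were 3.17 ± 1.16, 3.98 ± 0.465 and 3.67 ± 0.596%. By library they were 4.07, 1.87 and 3.58% in moxGFP cells, with replicate 2 the lowest. They were 3.59, 3.85 and 4.49% in EGFP cells and 3.58, 3.12 and 4.30% in vector cells.

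Of 27 genes that act on these factors, 4 were called higher and 1 lower in moxGFP cells against vector, and 2 higher and 2 lower in EGFP cells. Of all genes tested, 14.8% were called higher and 14% lower in moxGFP cells, and 7.6% and 7.76% in EGFP cells, so the shares of this list called higher were near the background. JJJ3, a cochaperone needed for the diphthamide modification of eEF2, had 15.4, 22.5 and 23.7 CPM in moxGFP libraries, 3.26, 1.56 and 3.54 in EGFP libraries and 1.78, 3.67 and 2.74 in vector libraries. Its log2 fold change in moxGFP cells was 2.89 ± 0.41 (adjusted p = 0.00160), without overlap. DOM34, which acts in rescue of stalled ribosomes, had 21.9, 67.1 and 30.2 CPM in moxGFP libraries, 8.29, 6.23 and 11.7 in EGFP libraries and 8.54, 9.14 and 9.07 in vector libraries, a rise of 2.14 ± 0.41 in moxGFP cells (adjusted p = 0.00513). Without moxGFP replicate 2 the rise of DOM34 was 1.54 (adjusted p = 0.00130, edgeR). KTI11, another diphthamide gene, and TMA20, for ribosome recycling, rose by 1.28 ± 0.31 and 1.17 ± 0.28 in moxGFP cells. GCN1, the activator of the eIF2 kinase Gcn2, had 136, 171 and 91.6 CPM in moxGFP libraries, 151, 159 and 174 in EGFP libraries and 461, 224 and 366 in vector libraries, and was called lower with both proteins (−1.40 ± 0.34 and −1.12 ± 0.33, adjusted p = 0.0122 and 0.0443). GCN2 itself was called higher in EGFP cells (1.28 ± 0.29, adjusted p = 0.0143), as was EAP1, an eIF4E-binding protein (1.59 ± 0.47, adjusted p = 0.0419), while YGR054W, which encodes eIF2A, was called lower (−1.02 ± 0.31, adjusted p = 0.0480). In moxGFP against EGFP, JJJ3, DOM34 and TMA20 were called higher and DBP1, the paralog of DED1, lower. Without moxGFP replicate 2, the counts were 6 higher and 2 lower in moxGFP cells and 3 higher and 4 lower in EGFP cells. In that fit 1182 and 1206 of 6404 genes were called in moxGFP cells and 945 and 1104 in EGFP cells. Leaving out vector replicate 1 gave 2 and 0 in moxGFP cells, and leaving out EGFP replicate 1, vector replicate 1 or vector replicate 3 gave 0 and 0 in EGFP cells. Calls over all genes fell as well, to 346 and 404 in moxGFP cells without vector replicate 1. In EGFP cells they fell to 203 and 174, 106 and 168, and 184 and 277 in the fits named.

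Genes of 2 other responses were read beside the members. Of 9 zinc-responsive genes, 5 were called lower and 0 higher in moxGFP cells and 7 lower and 0 higher in EGFP cells against vector, led by ZPS1 (−6.78 ± 0.70 and −7.55 ± 0.72), ZRT3 (−2.79 ± 0.35 and −2.75 ± 0.35) and ZRT1 (−2.16 ± 0.42 and −2.30 ± 0.42). The shares over all genes tested were 14% lower and 14.8% higher in moxGFP cells, and 7.76% and 7.6% in EGFP cells. Of 8 genes of the low oxygen response, to which ANB1 also belongs, TIR1 alone was called higher in moxGFP cells (1.42 ± 0.49, adjusted p = 0.0488, the libraries overlapping) and in EGFP cells (2.35 ± 0.48, adjusted p = 0.0100), and none was called lower with all libraries. The next largest in moxGFP cells were OLE1 (0.60) and CYC7 (−0.44), and in EGFP cells HEM13 (−0.97) and CYC7 (0.90). Without moxGFP replicate 2 the zinc counts were 5 lower in moxGFP cells and 8 lower in EGFP cells, and of the low oxygen genes OLE1 (1.06), not TIR1, was called in moxGFP cells, while HEM13 (−1.02) and AAC3 (−0.84) were called lower in EGFP cells. In that fit 1206 of 6404 genes were called lower in moxGFP cells and 1104 in EGFP cells, and 1182 and 945 higher. Leaving out any 1 EGFP library gave 4 zinc genes lower in EGFP cells and 0 low oxygen genes called in moxGFP cells. In those fits 174 to 327 of all genes were called lower in EGFP cells. In moxGFP cells 771 to 853 were called higher and 726 to 801 lower. Whether either response has a part in the changes of the members was not tested.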

How the data were processed

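Per the labels and the study's methods, rRNA-depleted total RNA with ERCC spike-ins (RNA added in known amounts) was sequenced in pairs on a NextSeq, and reads were trimmed with FastP, aligned with HISAT2 and assigned to genes with StringTie. The submitters' processing notes name HISAT2 2.2.0, SAMtools 1.11 and edgeR 3.28.1. The authors deposited raw counts per gene for all 9 libraries in 1 table, with 92 ERCC rows, 16 ribosomal RNA rows and entries for both fluorescent proteins. The genome build, annotation and strand setting of the counting are not given in the sources used here.

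Counts without ERCC rows were tested with edgeR 4.0.16 (R 4.3.3) after TMM scaling and filterByExpr, in 1 fit to the 3 groups, and p-values were adjusted over 6338 genes. The common biological coefficient of variation was 0.364. DESeq2 1.42.0, other scalings and filters, fits to 2 groups, a replicate block, summed copies and leaving out each library were tried as alternatives, and the scripts were tested on simulated data. The replicates are labelled biological without saying whether they were separate cultures, so p-values measure the spread between these libraries. Promoters and coding lengths were read from the RefSeq S288C R64 reference with Biopython 1.88, where all 41 members matched by systematic name. Its coordinates are not printed, since the build behind the counts is not named.

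All 41 members are accounted for. Values in every library are given for members called in moxGFP against EGFP, for the member of each class with the largest absolute change against vector, and for both copies of each pair, beside any other called member. For the regulators, up to 5 called genes with the largest change in each comparison with vector are named, and for the zinc and low oxygen genes the 3 largest. The members, lists and tests were chosen with earlier results of these data known.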

Additional observations from a re-analysis of the deposited data

How the results depend on the processing

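All members called in a comparison kept their direction in all 19 alternative fits. The number called depended on the scaling and on how the spread was estimated. The main counts were 8 higher and 2 lower in moxGFP against vector, 2 and 0 in EGFP against vector, and 5 and 2 in moxGFP against EGFP. With library sizes alone they were 1 and 0, 0 and 0, and 0 and 0, with 104 and 144, 81 and 34, and 19 and 127 of all genes called, and with ERCC totals as library sizes 0 in all, with 11 and 17, 7 and 14, and 2 and 2 of all genes. In a fit to the 2 groups compared they were 4 and 0, 8 and 4, and 0 and 0, with 609 and 605 of 6253, 898 and 1055 of 6302, and 119 and 126 of 6266 genes called. The DESeq2 Wald test gave 12 and 5, 4 and 4, and 5 and 2, with 1070 and 1127, 570 and 774, and 809 and 643 of all genes, against 937 and 887, 482 and 492, and 474 and 448 in edgeR. Without a filter 1 member was called lower in moxGFP against vector, and with near-identical copies summed 1 row was (EFT1 and EFT2, −1.33, adjusted p = 0.0497). Leaving out 1 library at a time gave 1 to 13 higher and 0 to 3 lower in moxGFP against vector, 1 to 8 and 0 to 4 in EGFP against vector, and 0 to 6 and 0 to 2 in moxGFP against EGFP. Over all genes these fits called 346 to 1182 higher and 404 to 1206 lower in moxGFP against vector. They called 106 to 945 and 168 to 1104 in EGFP against vector, and 32 to 744 and 69 to 650 in moxGFP against EGFP. Adjusted p-values of the members called ranged widely over the 19 fits, from 9.36e-06 to 0.416 for TIF11 in moxGFP against vector and from 3.88e-05 to 0.996 for FUN12 in EGFP against vector, the highest with ERCC totals as library sizes. For GCD2, TIF4631 and SUP35, called in moxGFP against vector without moxGFP replicate 2, they reached 0.698, 0.692 and 0.617. Alternatives for the shares of copies, the other gene lists and the relation to length were chosen after seeing the data. Library sizes alone moved the median change over all tested genes to 0.52 in EGFP against vector and −0.47 in moxGFP against EGFP. The members' share of EGFP counts was 3.98% without ribosomal RNA and GFP entries in the total.

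Fitting the replicate number as a block gave 5 and 2, 2 and 0, and 5 and 0, with 730 and 780, 348 and 390, and 266 and 329 of all genes. The labels do not say that numbers pair the libraries, and same-numbered libraries did not deviate together (mean correlation −0.0186, from −0.344 to 0.256, over 9 pairs).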
